A study of Dugesia japonica with 15 samples.

Results

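The subject is a set of 256 gene models of the freshwater planarian *Dugesia japonica* whose transcripts stood at a middle level in intact animals and were at least about 4-fold lower in trunk fragments 5 days post amputation (5 dpa). Each row's count was scaled to 1000000 counts of its library (CPM), and each group was represented by the median of its libraries. A row was a member if its ID began with DJKW, its control intact median was from 5 to below 50 CPM, its log2 ratio of control 5 dpa to control intact was at most -2 with 0.5 CPM added to both, its log2 ratio of DjTcf4 RNAi 5 dpa to control 5 dpa was above -0.4, and every control 5 dpa library lay below every control intact library. Of 38792 rows in the table, 28999 carried DJKW IDs and 7764 of those lay in the CPM band. The fall criterion left 267 rows, the criterion on DjTcf4 RNAi removed 10 and the separation of libraries removed 1. The fall in control animals and the absence of a marked further fall with DjTcf4 RNAi at 5 dpa were therefore chosen, and both are described below without a test.

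Planarians rebuild missing body parts from neoblasts, dividing stem cells that are spread through the body and give rise to all other cell types. After a cut, a blastema of new cells forms at the wound, while the old tissue of a fragment is remodelled to fit the smaller body. In vertebrates the name TCF4 has been used for a β-catenin partner of the Wnt pathway and for a basic helix-loop-helix factor, and the labels do not say which kind DjTcf4 is. The series asks about the timing of differentiation in regeneration.

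Messenger RNA captured on oligo-dT beads was sequenced from animals treated by RNA interference (RNAi), a knockdown by double-stranded RNA. There were 3 libraries of DjTcf4 RNAi trunk fragments at 5 dpa (replicates 1, 3 and 4), 4 of DjTcf4 RNAi intact animals, 4 of control RNAi trunk fragments at 5 dpa and 4 of control RNAi intact animals. All groups, controls included, had an RNAi treatment, and RNA came from pooled groups of animals. The labels give neither the target of the control RNAi nor animal age. They do not say whether replicates were separate sets of animals, and the spread behind each p-value may thus be technical. A trunk fragment lacks the old head and tail, so the time after amputation and the body region sampled cannot be told apart here. In these bulk samples, fewer cells of a type and less RNA per cell also cannot be told apart.

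Rows carry IDs that the table does not pair with gene names. Roles of the members, cell type markers and the knockdown of DjTcf4 were therefore not analysed here. CPM values are not divided by transcript length, so a higher CPM in 1 member than in another does not show more transcripts, also where members are ranked or grouped by CPM below. IDs are printed for 2 members, and other members are described by their place in the set.

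Total counts ran from 8136366 to 12224216 per library. In DjTcf4 RNAi intact replicate 2, the members stood as low as in 5 dpa fragments, unlike the other intact libraries of either RNAi group. Whether the library matches its label was not tested, and if it does not, values that use it do not describe DjTcf4 RNAi intact animals alone. The main results that use it are therefore given with and without it. Since it is set aside for the low level of the members, leaving it out favours the fall tested below. Counts had a fractional part in at least 1 library for 44 members (17.2%), against 15.4% of all 7764 rows of the band. Their levels are uncertain, since a fraction can arise where a read matches more than 1 sequence.

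The members were reduced at 5 dpa in control animals, and few approached 0. In control 5 dpa libraries 1, 2, 3 and 4, their summed level was 651, 671, 1274 and 638 CPM, against 3126, 5617, 4468 and 5859 CPM in control intact libraries 1 to 4. All 4 fragment libraries lay below all 4 intact libraries, as the rule requires of each member, and replicate 3 was the high one of the fragment libraries. The median member kept 14.7% of its intact level, with a range of 1.57% to 23.9%. Under 5% was kept by 18 members and under 10% by 62, these 18 included. Between 10% and 20% was kept by 154 members, and 20% or more by 40. No member was at 0 in all 4 control 5 dpa libraries, and 10 were at 0 in at least 1. The median member had 17.0 to 38.3 counts in control 5 dpa libraries and 106 to 168.5 counts in control intact libraries.

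At the far end of the set, the member with the lowest log2 ratio (-4.24) had 1.47, 0.246, 4.29 and 1.29 CPM in control 5 dpa libraries 1 to 4, against 16.1, 38.6, 32.8 and 37.1 CPM in control intact libraries. At the near end, the member with the highest ratio (-2.003) had 8.38, 8.97, 13.8 and 7.99 CPM in control fragments, against 25.5, 38.9, 33.7 and 41.3 CPM in control intact animals. The first of these kept 3.94% of its intact level and the second 23.9%. The nearest row outside this limit had a log2 ratio of -1.997, and 25 rows that met all other criteria lay between -1.9 and -2, against 37 members between -2 and -2.1. The limit thus cuts through a continuous range of falls. For the criterion on DjTcf4 RNAi at 5 dpa, the nearest values were -0.398 inside and -0.403 outside. In the control intact median, the lowest member stood at 5.01 CPM and the nearest row below the band at 4.88 CPM, and the highest member at 49.3 CPM and the nearest row above at 50.2 CPM.

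**Figure D1:**
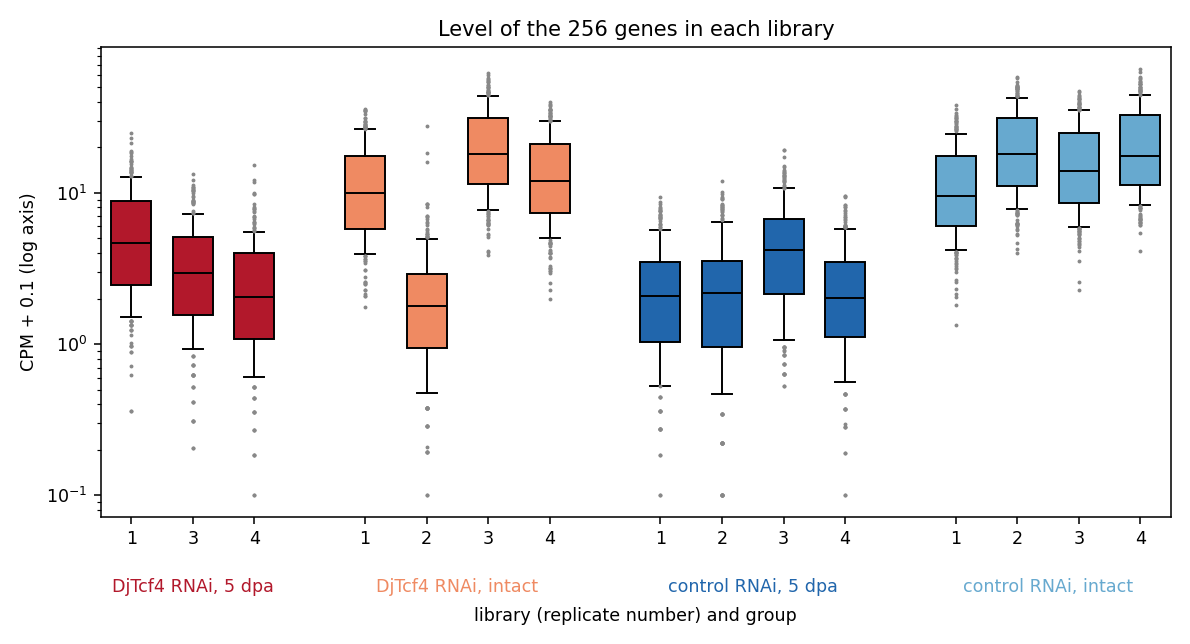
Level of the 256 genes in each of the 15 libraries, as CPM + 0.1 on a log axis. Boxes span the interquartile range of the genes with the median as a line, whiskers run from the 10th to the 90th percentile, and dots are genes beyond them. The boxes of DjTcf4 RNAi intact replicate 2 and of the 5 dpa libraries lie low, with member medians of 1.67 to 4.55 CPM, and the other intact libraries have medians of 9.40 to 18.1 CPM.

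The DjTcf4 RNAi intact libraries were not used by the rule, so the fall from intact animals to fragments under DjTcf4 RNAi was tested. The test is not free of the rule. Each gene's spread was estimated over all 15 libraries, including the control libraries that the rule required to separate. The choice of members may thus shape the p-values. The DjTcf4 RNAi 5 dpa libraries entered the rule through the limit on further falls, which removes rows that are low there and so works against a fall in this comparison. In DjTcf4 RNAi 5 dpa libraries 1, 3 and 4 the members summed to 1535, 901 and 694 CPM, against 3191, 590, 5696 and 3766 CPM in DjTcf4 RNAi intact libraries 1 to 4. Intact replicate 2, at 590 CPM, lay below all 7 fragment libraries of both RNAi groups, and the other 3 intact libraries lay above all of them. All 256 members passed the filter on low counts.

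With all libraries, 88 members were called lower and 0 higher in DjTcf4 RNAi fragments than in DjTcf4 RNAi intact animals (edgeR quasi-likelihood test, Benjamini-Hochberg adjusted p under 0.05 over 17094 genes). That is 34.4% of the members, against 6.67% of all tested genes called lower and 6.81% called higher. The log2 fold change was below 0 in all 256 members, with a median of -1.66 and a range of -3.56 to -0.58, and the median over all tested genes was -0.05. At an unadjusted p under 0.05, 216 members were lower, against 16.3% of tested genes, and 0 higher, against 14%.

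Single libraries decided the number of calls. Without DjTcf4 RNAi intact replicate 2, 249 members (97.3%) were called lower, against 19.3% called lower and 17.3% called higher of the 16922 genes tested in that fit, and the 88 members above were among them. The median log2 fold change of the members was then -2.02, with a range of -3.97 to -0.91. Replicate 2 was set aside for its low member levels, so these values depend on a choice made on the outcome tested. The 7 members not called had log2 fold changes of -1.83 to -0.91 and adjusted p of 0.0515 to 0.209 in edgeR. Without DjTcf4 RNAi 5 dpa replicate 3, 15 of the 256 members were called, against 2.78% of tested genes. Without replicate 4 it was 14 of 256, against 3.06%. Without DjTcf4 RNAi intact replicate 1, 50 members were called, against 4.59% of tested genes, without replicate 3, 23 members, against 4.41%, and without replicate 4, 41 members, against 5.3%. With all libraries, DESeq2 called 148 members lower (57.8%), against 9.27% of tested genes, and limma 245 (95.7%), against 20.8%. Without intact replicate 2, DESeq2 called 251, against 19.9%, and limma 252, against 22%. Fitted to the 2 compared groups alone, with all their libraries, edgeR called 7 of the 256 members, against 1.88% of tested genes. The share of members was then close to the share of all tested genes. With no filter on low counts edgeR called 28 of the 256, against 2.8%.

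In 12 members (4.69%), all 3 DjTcf4 RNAi 5 dpa libraries lay below all 4 DjTcf4 RNAi intact libraries, against 9.41% of all tested genes. Without intact replicate 2 there were 250 such members (97.7%), against 27.8% of all tested genes. Setting this library aside for its low members favours that number.

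DJKW.4170 and DJKW.25835 were the called members with the highest mean CPM in DjTcf4 RNAi intact animals. Both were thus chosen on the comparison tested, by their call and by high intact values. Their falls and adjusted p below describe them and add no separate support. DJKW.4170 had 9.76, 6.05 and 4.49 CPM in DjTcf4 RNAi 5 dpa libraries 1, 3 and 4, against 31.3, 3.44, 51.2 and 34.9 CPM in DjTcf4 RNAi intact libraries 1 to 4. Replicate 2 is the 1 intact library below the fragments, and the other 3 are at least 3 times as high as any fragment. The mean was 6.77 ± 2.71 CPM (SD, n = 3) at 5 dpa and 30.2 ± 19.8 CPM (SD, n = 4) in intact animals, or 39.1 ± 10.6 CPM (SD, n = 3) without replicate 2. Its log2 fold change was -2.08 (SE 0.638, edgeR adjusted p = 0.0440) with all libraries and -2.46 (SE 0.434, edgeR adjusted p = 0.000981) without replicate 2. In control animals DJKW.4170 had 2.42, 2.09, 8.37 and 2.57 CPM at 5 dpa, against 23.7, 45.8, 39.3 and 43.8 CPM in intact libraries. Fragment replicate 3 is the high one and intact replicate 1 the low one there, and the groups do not overlap, as the rule requires of each member.

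DJKW.25835 had 10.8, 6.26 and 5.17 CPM in DjTcf4 RNAi 5 dpa libraries 1, 3 and 4, against 29.7, 6.79, 47.5 and 34.9 CPM in DjTcf4 RNAi intact libraries 1 to 4. Again intact replicate 2 alone falls among the fragments. The mean was 7.41 ± 2.995 CPM (SD, n = 3) at 5 dpa and 29.7 ± 17.04 CPM (SD, n = 4) in intact animals, or 37.4 ± 9.19 CPM (SD, n = 3) without replicate 2. Its log2 fold change was -1.93 (SE 0.520, edgeR adjusted p = 0.0257), and -2.26 (SE 0.400, edgeR adjusted p = 0.000971) without replicate 2. In control animals it had 5.18, 5.16, 10.1 and 2.94 CPM in fragments, against 24.3, 48.7, 42.2 and 57.5 CPM in intact libraries.

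Over 26 alternatives, the adjusted p for the fall with DjTcf4 RNAi ran from 1.32e-05 to 0.172 for DJKW.4170, whose call ended in 10, and from 6.93e-06 to 0.120 for DJKW.25835, whose call ended in 5. For DJKW.4170 the call ended without any 1 of DjTcf4 RNAi 5 dpa replicates 1, 3 and 4 (adjusted p = 0.0643, 0.140 and 0.172), DjTcf4 RNAi intact replicates 1, 3 and 4 (0.0653, 0.134 and 0.0696) or control 5 dpa replicate 2 (0.0548), all in edgeR. For DJKW.25835 it ended without DjTcf4 RNAi 5 dpa replicate 3 or 4 (edgeR adjusted p = 0.1003 and 0.120) or DjTcf4 RNAi intact replicate 3 (0.0792). Both calls also ended with no filter on low counts (edgeR adjusted p = 0.127 for DJKW.4170 and 0.0811 for DJKW.25835). They ended as well with the compared groups fitted alone (0.136 and 0.0945, edgeR). The call of DJKW.4170 also ended with scaling by library size alone (edgeR adjusted p = 0.0502). The log2 fold change stayed below 0 in all 26 for both.

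**Figure D2:**
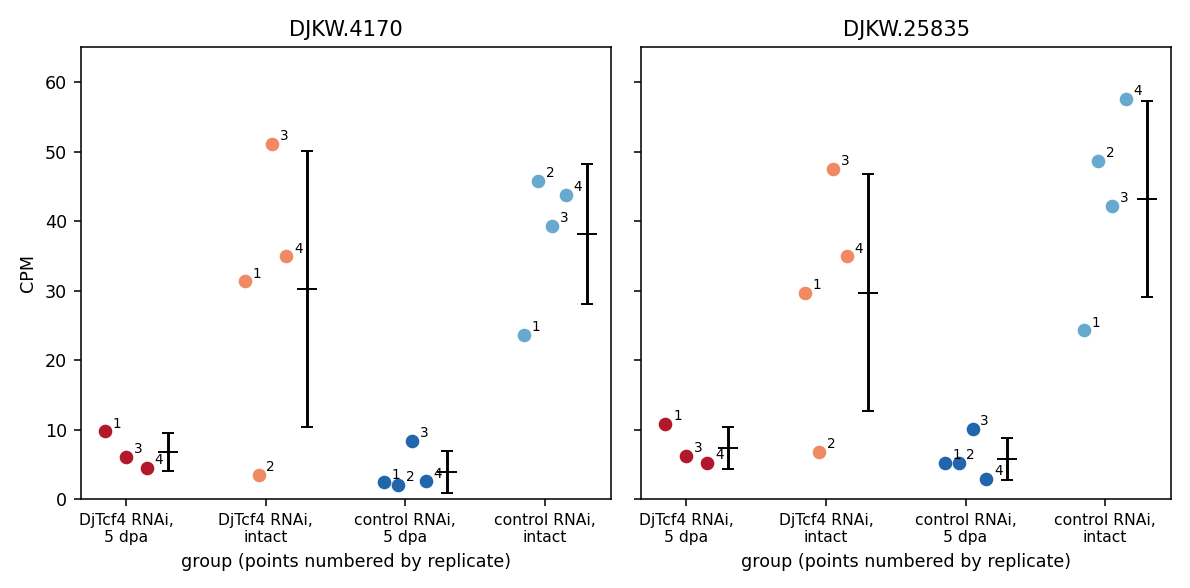
CPM of DJKW.4170 and DJKW.25835 in each library, numbered by replicate, with the mean and SD of each group in black. DjTcf4 RNAi intact replicate 2 lies at 3.44 and 6.79 CPM, among the 5 dpa libraries, while the other intact libraries of both RNAi groups lie between 23.7 and 57.5 CPM.

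The falls in both RNAi groups can be set side by side, since the libraries of DjTcf4 RNAi and control animals are separate. Without DjTcf4 RNAi intact replicate 2, the median log2 fold change from intact to 5 dpa was -2.02 with DjTcf4 RNAi and -2.58 in control. The median member kept 23.1% of its intact level with DjTcf4 RNAi and 14.7% in control. With DjTcf4 RNAi, 14 members kept under 10%, 80 kept 10% to 20% and 162 kept 20% or more, against 62, 154 and 40 in control. The difference between these falls was not tested, because the rule chose low control 5 dpa values, high control intact values and a limit on the DjTcf4 RNAi level at 5 dpa, all of which push it in this direction. Genes with the larger falls in control tended to have the larger falls with DjTcf4 RNAi. Pearson's r was 0.812 and Spearman's rho 0.805 across the 256 members, as a description only, since the points share their libraries within each axis and the members vary together between libraries. By size of the control log2 ratio, the 15 members below -3.5 had a median log2 fold change of -2.92 with DjTcf4 RNAi, the 39 between -3.5 and -3 had -2.64, the 71 between -3 and -2.5 had -2.12 and the 131 between -2.5 and -2 had -1.75. By intact level, the medians were -2.098 for the 71 members from 5 to 10 CPM, -1.93 for the 89 from 10 to 20 CPM and -1.95 for the 96 from 20 to 50 CPM.

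**Figure D3:**
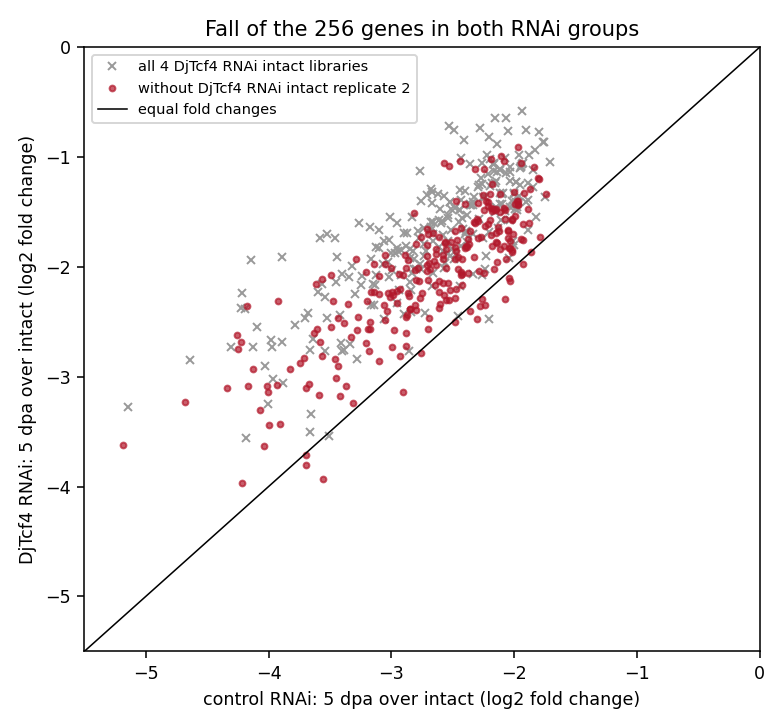
Log2 fold change of each of the 256 genes from intact to 5 dpa, with DjTcf4 RNAi (vertical axis) and control RNAi (horizontal axis), from edgeR. Red points leave out DjTcf4 RNAi intact replicate 2 (medians -2.02 with DjTcf4 RNAi and -2.58 in control), grey crosses use all libraries (medians -1.66 and -2.54), and all points of both kinds lie below 0 on both axes.

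In intact animals, no member was called as changed by DjTcf4 RNAi. The rule used the control intact libraries for level and separation, and did not use the DjTcf4 RNAi intact libraries. Members were thus chosen for high control intact values, which pushes this comparison below 0. The median member level was 9.86, 1.67, 18.1 and 11.9 CPM in DjTcf4 RNAi intact libraries 1 to 4, against 9.40, 18.0, 13.8 and 17.5 CPM in control intact libraries 1 to 4. Apart from DjTcf4 RNAi replicate 2, the libraries of both groups cover about the same range. In edgeR, 0 members were called lower and 0 higher with DjTcf4 RNAi, against 0.0117% and 0% of all tested genes, and 5 were lower and 0 higher at an unadjusted p under 0.05 (1.95% of members, against 2.54% of tested genes lower and 4.47% higher). The median log2 fold change was -0.56, with 252 of 256 members below 0, against 46.8% of all tested genes. The smallest edgeR adjusted p was 0.672. Without replicate 2 the median was -0.23, with 238 members below 0, against a median of -0.02 over all tested genes. Of all tested genes, 55.3% were then below 0. In that fit edgeR again called 0 members, against 0.136% of tested genes lower, and 3 were lower at an unadjusted p under 0.05 (1.17%, against 3.39% lower and 2.02% higher). The DjTcf4 RNAi intact libraries lay below all control intact libraries in 0 members, against 1.32% of tested genes, and without replicate 2 also in 0, against 2.61%. Without replicate 2 they lay above all of them in 1 member, against 4.24%.

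DESeq2 and limma also called 0 members in intact animals, with or without replicate 2. Of all tested genes DESeq2 called 0.176% lower with all libraries and 0.331% without replicate 2, and limma 0.222% and 0.266%. At an unadjusted p under 0.05, DESeq2 had 9 lower members with all libraries (3.52%, against 3.18% of tested genes) and 4 without replicate 2 (1.56%, against 3.42%), and it gave no adjusted p for 1 member with all libraries and for 123 without replicate 2. limma, which weights libraries by quality, had 52 lower members with all libraries (20.3%, against 5.73%) and 57 without replicate 2 (22.3%, against 6.56%). The smallest limma adjusted p was 0.123 and 0.1103. There was 1 higher member in each, and the share of tested genes that were higher was not computed for limma. Members vary together between libraries, so these counts are not counts of independent genes. The choice of high control intact values also favours lower members here. The log2 fold change of DJKW.4170 with DjTcf4 RNAi was -0.37 (SE 0.532, edgeR adjusted p = 0.794), and -0.01 (SE 0.362, edgeR adjusted p = 0.998) without replicate 2. For DJKW.25835 the log2 fold change with DjTcf4 RNAi was -0.56 (SE 0.438, edgeR adjusted p = 0.686), and -0.25 (SE 0.338, edgeR adjusted p = 0.988) without replicate 2.

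The members shared a pattern across the replicate libraries of each group. In the DjTcf4 RNAi intact libraries, replicate 2 was the lowest of the 4 for 252 of 256 members (98.4%), against 43.5% of the 7764 rows of the band, and replicate 3 was the highest for 244 (95.3%), against 35.4%. Among the control intact libraries, replicate 1 was the lowest for 236 members (92.2%), against 36.3% of the band, and replicates 2 and 4 were the highest for 104 and 143. At 5 dpa, DjTcf4 RNAi replicate 1 was the highest of 3 for 233 members (91.0%), against 37.5% of the band, and control replicate 3 the highest of 4 for 225 (87.9%), against 26.6%. Most members thus shared the library in which they were lowest or highest. Control libraries were used to choose the members, and the DjTcf4 RNAi 5 dpa libraries entered through the limit on further falls. Of the groups given here, only the DjTcf4 RNAi intact libraries were not used by the rule.

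The highest summed level was 2.21 times the lowest among the DjTcf4 RNAi 5 dpa libraries, 1.79 times among the DjTcf4 RNAi intact libraries without replicate 2, 1.99 times among the control 5 dpa libraries and 1.87 times among the control intact libraries. With replicate 2 the ratio in DjTcf4 RNAi intact animals was 9.66. Expressed as a percentage of each member's control intact median, the median member stood at 64.1%, 9.75%, 117% and 76.2% in DjTcf4 RNAi intact libraries 1 to 4, against 63.1%, 113%, 91.2% and 117% in control intact libraries 1 to 4. The 10th to 90th percentiles over members were 45.3% to 82.3% in DjTcf4 RNAi intact replicate 1 and 91.5% to 148% in replicate 3. Replicate 1 was below every control intact library in 107 members (background 18.8% of tested genes), replicate 2 in 252 (background 38.7%), replicate 3 in 2 (background 16.4%) and replicate 4 in 38 (background 16.3%). Above every control intact library were 2 members in replicate 1 (background 23%), 2 in replicate 2 (36.4%), 81 in replicate 3 (25.4%) and 1 in replicate 4 (22%).

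Among genes of the same CPM band, those 2-fold to 4-fold lower in control fragments followed the same intact libraries with smaller steps, and those with little change did not. In 584 band genes that met the other criteria with a control fall of 2-fold to 4-fold, the median gene stood at 81.4%, 26.2%, 112% and 86.3% of its control intact level in DjTcf4 RNAi intact libraries 1 to 4, against 79.2%, 109%, 93.0% and 115% in control intact libraries. In 5186 band genes whose control log2 change was under 0.5 in size, the corresponding medians were 102%, 112%, 103% and 101%, against 99.4%, 102%, 98.6% and 101%. By these medians, the order of the libraries within both intact groups was the same in the members and in the 584 genes. No test of a difference between these classes was made, since all were chosen on the control fall.

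**Figure D4:**
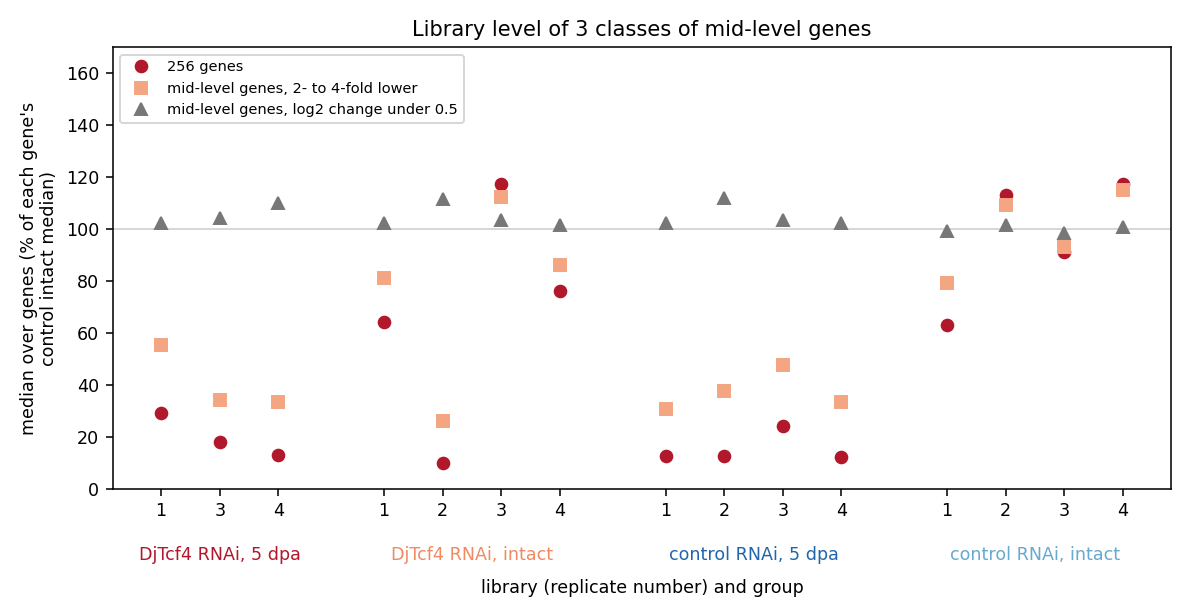
Median over genes, in each library, of the level as a percentage of each gene's control intact median. Circles are the 256 genes, squares 584 genes of the same CPM band that were 2-fold to 4-fold lower in control fragments, and triangles 5186 band genes with a log2 change under 0.5. The triangles stay between 98.6% and 112%, while the circles are at 9.75% in DjTcf4 RNAi intact replicate 2 and at 63.1% in control intact replicate 1.

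The number of rows detected differed between libraries whose members stood high and low. Thinned to the depth of the smallest library, the DjTcf4 RNAi intact libraries 1 to 4 had 22030, 21469, 20742 and 22089 rows with a count, against 21876, 20599, 20987 and 20909 in control intact libraries. The 3 intact libraries with members at 3126 to 3766 CPM in sum had the 3 highest numbers, and the 4 with 4468 to 5859 CPM the 4 lowest, with DjTcf4 RNAi replicate 2 between them. At 5 dpa the DjTcf4 RNAi libraries 1, 3 and 4 had 21707, 21602 and 20554 rows, against 20836, 19944, 21416 and 20987 in control libraries 1 to 4, and in both groups the library with the highest members had the most rows. The share of values with a fractional part ran from 7.32% to 10.2% in DjTcf4 RNAi intact libraries and from 6.93% to 9.46% in control intact libraries, and control replicate 1 had the highest share of its group. The part of these measures in the movement of the members was not tested.

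**Figure D5:**
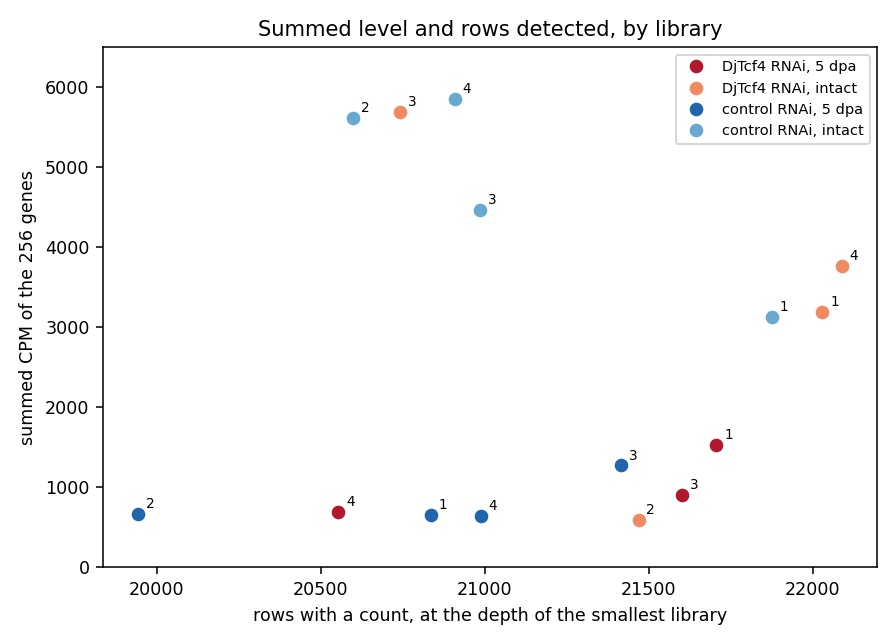
Summed CPM of the 256 genes against the number of rows with a count at the depth of the smallest library, numbered by replicate. The intact libraries other than DjTcf4 RNAi replicate 2 run from 5617 CPM at 20599 rows to 3766 CPM at 22089 rows, and the 5 dpa libraries lie between 638 and 1535 CPM.

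A few members did not follow the others across the intact libraries. DjTcf4 RNAi intact replicate 2 lay within the range of the control intact libraries in 2 members. In another 2 it lay above every control intact library, and these last 2, picked by this value, are described here. One had 2.46, 2.92 and 1.86 CPM in DjTcf4 RNAi 5 dpa libraries 1, 3 and 4, against 14.0, 16.0, 12.4 and 12.4 CPM in DjTcf4 RNAi intact libraries 1 to 4. In control animals it had 3.20, 1.35, 2.36 and 2.02 CPM in fragments, against 11.7, 11.8, 10.4 and 10.4 CPM in intact libraries. Its groups do not overlap in either RNAi condition, and its intact libraries differ by less than 2-fold. The rule required the separation in control, and picking the member by a high replicate 2 favours the separation with DjTcf4 RNAi. This member had the smallest adjusted p of the set for the fall with DjTcf4 RNAi, at -2.47 on the log2 scale (SE 0.257, edgeR adjusted p = 9.76e-06), and -2.35 (SE 0.248, edgeR adjusted p = 2.75e-06) without intact replicate 2. The choice by replicate 2 favours the value with all libraries. The other had 3.34, 4.06 and 4.47 CPM in DjTcf4 RNAi fragments, against 24.2, 27.4, 16.8 and 20.1 CPM in DjTcf4 RNAi intact libraries, with fractional counts in at least 1 library. Its control values were 1.78, 2.09, 3.86 and 3.76 CPM in fragments, against 21.8, 14.6, 14.1 and 16.1 CPM in intact libraries, so that replicate 1, the lowest control intact library for most members, was here the highest. It had the largest rise of the set with DjTcf4 RNAi in intact animals, at 0.42 on the log2 scale (SE 0.231, edgeR adjusted p = 0.672), which was not called. Replicate 2, by which the member was picked, enters that value. Without replicate 2 it was 0.24 (SE 0.212, edgeR adjusted p = 0.988), and another member had the largest rise, at 0.34 (SE 0.261, edgeR adjusted p = 0.988).

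At 5 dpa, the members' levels with DjTcf4 RNAi and in control were partly fixed by the rule, and they are given as values. The median member level was 4.55, 2.87 and 1.95 CPM in DjTcf4 RNAi 5 dpa libraries 1, 3 and 4, against 1.99, 2.09, 4.11 and 1.93 CPM in control 5 dpa libraries 1 to 4. DjTcf4 RNAi replicate 1 and control replicate 3 are the high libraries, and the groups overlap. The median log2 fold change of the members was 0.35 with DjTcf4 RNAi, with 223 above 0, a number that the limit on DjTcf4 RNAi and the choice of low control values shape. Without DjTcf4 RNAi 5 dpa replicate 1 the median was -0.03, with 116 members above 0, and without control 5 dpa replicate 3 it was 0.67, with 250 above 0. Of the 265 rows that met the fall, band and separation criteria when the limit on DjTcf4 RNAi was left aside, the median log2 ratio was 0.28 and 9 lay at or below the limit. The member with the smallest fall under DjTcf4 RNAi had 7.12, 5.01 and 2.20 CPM in DjTcf4 RNAi 5 dpa libraries, against 7.68, 1.67, 9.40 and 10.96 CPM in DjTcf4 RNAi intact libraries. Its fall was -0.58 on the log2 scale (SE 0.496, edgeR adjusted p = 0.462), and -0.91 (SE 0.379, edgeR adjusted p = 0.0719) without intact replicate 2. In control animals it had 2.76, 2.34, 4.83 and 1.47 CPM at 5 dpa, against 7.33, 14.7, 11.6 and 12.04 CPM in intact libraries.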

How the data were processed

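The table was analysed as deposited: expected counts (estimated counts that need not be whole) for 38792 rows in 15 libraries, 8.23% of values with a fractional part. RSEM, HISAT2, Bowtie2 and DESeq2 are the tools listed in the submitters' processing notes, with no role or version stated. Neither a genome build nor an annotation is given in the sources used here. Members were found on unrounded CPM over the whole column total. Counts were rounded to whole numbers and tested with edgeR 4.0.16 (R 4.3.3): filterByExpr by group (minimum count 10, total 15; 17094 genes, 44.1%), TMM scaling and 1 robust quasi-likelihood fit over all 15 libraries with 1 coefficient per group. A call is a Benjamini-Hochberg adjusted p under 0.05 over all tested genes. The SE of a log2 fold change was taken as its size over the root of the F statistic. The biological coefficient of variation was 0.213. Chi-square over degrees of freedom was 3.57 to 69.7 between replicates of a group, so none was a mere repeat sequencing of another. It does not show whether replicates came from the same RNA or animals. Rows detected were thinned by expectation to 8136366 counts.

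Alternatives were limma 3.58.1 (voomWithQualityWeights), DESeq2 1.42.0, other scalings and filters, the replicate number as a block, the compared groups alone, a fold of at least 2, members with whole counts only and leaving out each library. DESeq2, limma and the block without DjTcf4 RNAi intact replicate 2 were chosen after seeing the data. The members and all lists were chosen with earlier results of these data known. The steps were tested on simulated counts. IDs were printed for the called members with the highest mean CPM in DjTcf4 RNAi intact libraries, at most 2 that fell and 2 that rose, and no member was called higher. Other members are described by their place in the set.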

Additional observations from a re-analysis of the deposited data

Results flagged for a closer look

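Among 21 group values examined for a library far from the other 3 of its group, 6 stood out. Several of them are related, and chance marks about 1 in 20 such groups. The DjTcf4 RNAi 5 dpa group, with 3 libraries, was not examined. DjTcf4 RNAi intact replicate 2 was not among the 6, so the screen can miss a library that stands apart. Member levels in control 5 dpa libraries were also used by the rule. Control 5 dpa replicate 3 stood apart for the members: their summed level there was 1274 CPM, against 638 to 671 CPM in the other 3 libraries of the group, and their median was 4.11 CPM, against 1.93 to 2.09 CPM. The median member stood there at 24.0% of its control intact level, against 12.4% to 12.8%. DJKW.4170 was at 8.37 CPM in the same library, against 2.09 to 2.57 CPM. Control 5 dpa replicate 2 had 19944 rows with a count and 6.06% of values with a fractional part, both the lowest of its group, and it had the smallest total count.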

How the results depend on the processing

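The number of members called lower at 5 dpa with DjTcf4 RNAi was 88. It was 28 with no filter, 148 with DESeq2, 245 with limma and 7 when only the 2 groups compared were fitted. That last number, of 256 members, is a share close to the 1.88% of all tested genes called there. With each library left out in turn it was 14 to 249. With DjTcf4 RNAi intact replicate 2 left out as well, DESeq2 gave 251, limma 252 and the replicate block 237, settings chosen after seeing the data. The cause of these differences was not tested, except that fewer libraries enter some fits. The other settings stayed within 1.5 times of 88, and the replicate block alone gave 92. The share of all tested genes called was not computed for either fit with the block, so 92 and 237 cannot be set against one. Libraries of the same number did not stand out in the 2 comparisons checked, but so few correlations cannot exclude pairing. Between DjTcf4 RNAi 5 dpa and intact libraries of the same number, deviations from the group means correlated at 0.212, -0.315 and -0.328. Those of unlike number ran from -0.573 to 0.433. Between DjTcf4 RNAi intact and control intact libraries of the same number they correlated at -0.125, -0.206, -0.072 and 0.085. Those of unlike number ran from -0.495 to 0.477. The deviations include those of DjTcf4 RNAi intact replicate 2. The median log2 fold change of the members stayed between -2.06 and -1.29 for the fall with DjTcf4 RNAi and between -0.95 and -0.23 for DjTcf4 RNAi in intact animals, and 0 members were called in intact animals in all 28 alternatives. The rule found 194 to 289 members with other pseudocounts, denominators or the mean, and 212 to 307 when a control library was left out. At 5 dpa a median member had 17.0 to 51.8 counts per library, which limits the precision of single members.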
